A study of Mus musculus with 3 samples.

Results

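Genes that encode chromatin remodellers and histone modifiers were read out of a list of Sp9 binding peaks from the neonatal mouse olfactory bulb. The set holds 54 genes, chosen by name for their known function, and every row of the list whose gene name equals 1 of them was taken: 51 genes and 99 peaks, out of 13383 gene names and 19979 peaks in all. Sp9, a zinc finger transcription factor of the Sp family that binds GC-rich DNA, was immunoprecipitated from formaldehyde-fixed bulbs of CD1 mice taken on postnatal days 0 to 2, with a homemade antibody. There were 2 such immunoprecipitation libraries and 1 input library made without antibody from the same strain, age and tissue; no genotype or treatment set the libraries apart. The study's title names the joint action of Sp8 and Sp9 in the development of olfactory bulb interneurons.

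Labels do not say whether the immunoprecipitations came from separate animals. What was analysed is the authors' list of peaks common to them. It gives 1 position in the mouse build mm9, 1 score and 1 gene name for each peak, and nothing per library, so no value has an error between replicates and no test between groups could be made. Linked means here that the list pairs a peak with a gene's name, at a distance it does not state. The authors' peak score ranks peaks within this list only; its lowest value was 80.01, its median 210.06, its upper quartile 354 and its highest value 3139.09. The formula of the score and the depth of the libraries are unknown here, and a whole bulb mixes neurons, progenitors and glia, so a peak cannot be assigned to a cell type. The list holds no expression levels, so the tissue was not checked against marker genes.

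Chromatin regulators set how accessible DNA is to transcription factors. BAF, CHD and ISWI complexes use ATP to move or evict nucleosomes, Polycomb complexes and histone methyltransferases write repressive or activating marks that demethylases erase, acetyltransferases and deacetylases add and remove acetyl groups, and Dnmt and Tet enzymes add and oxidise methyl groups on cytosine. In the developing brain these enzymes are known for the exchange of subunits and marks as progenitors leave the cell cycle and become neurons.

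Nearly all of the genes were linked. Of the 54, 51 had at least 1 peak (94.4%, exact Clopper-Pearson interval at 95% from 84.6 to 98.8%), whereas 55.4% of the 21900 protein-coding genes of the reference table did. Peaks at or above the median score, called above-median here, were linked to 43 of the 54 (79.6%, exact interval 66.5 to 89.4%; 35.4% of coding genes). Peaks at or above the upper quartile were linked to 28 of the 54 (51.9%, exact interval 37.8 to 65.7%; 19.2% of coding genes). The intervals cover counting error only and treat genes as independent, and the genes were chosen with earlier results of these data known. Hdac3, Hdac5 and Tet1 were the genes without a linked peak.

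Most members had 1 peak. A single peak was linked to 31 genes, 9 genes had 2, 5 had 3 and 6 had 4 or more. This gave 1.83 peaks per member against 0.819 per coding gene, averages that include genes without a peak. Among linked genes alone they were 1.94 and 1.48. Of the linked members 39.2% had 2 or more peaks, against 27.9% of linked coding genes. The highest peak of each linked member had a median score of 377.99, and that of all linked coding genes 273.25. A gene with more peaks has more chances of a high one, so the same values are given by number: 338.19 for the 31 members with 1 peak and 248.72 for the 8749 coding genes with 1 peak, then 593.92 for the 20 members with several peaks and 336.89 for the 3387 such coding genes. Member genes lay above the coding genes in both classes, but genes with several peaks were not matched for how many they had. Over the 99 peaks themselves the median score was 267.37, and 60.6% were above-median.

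**Figure D1:**
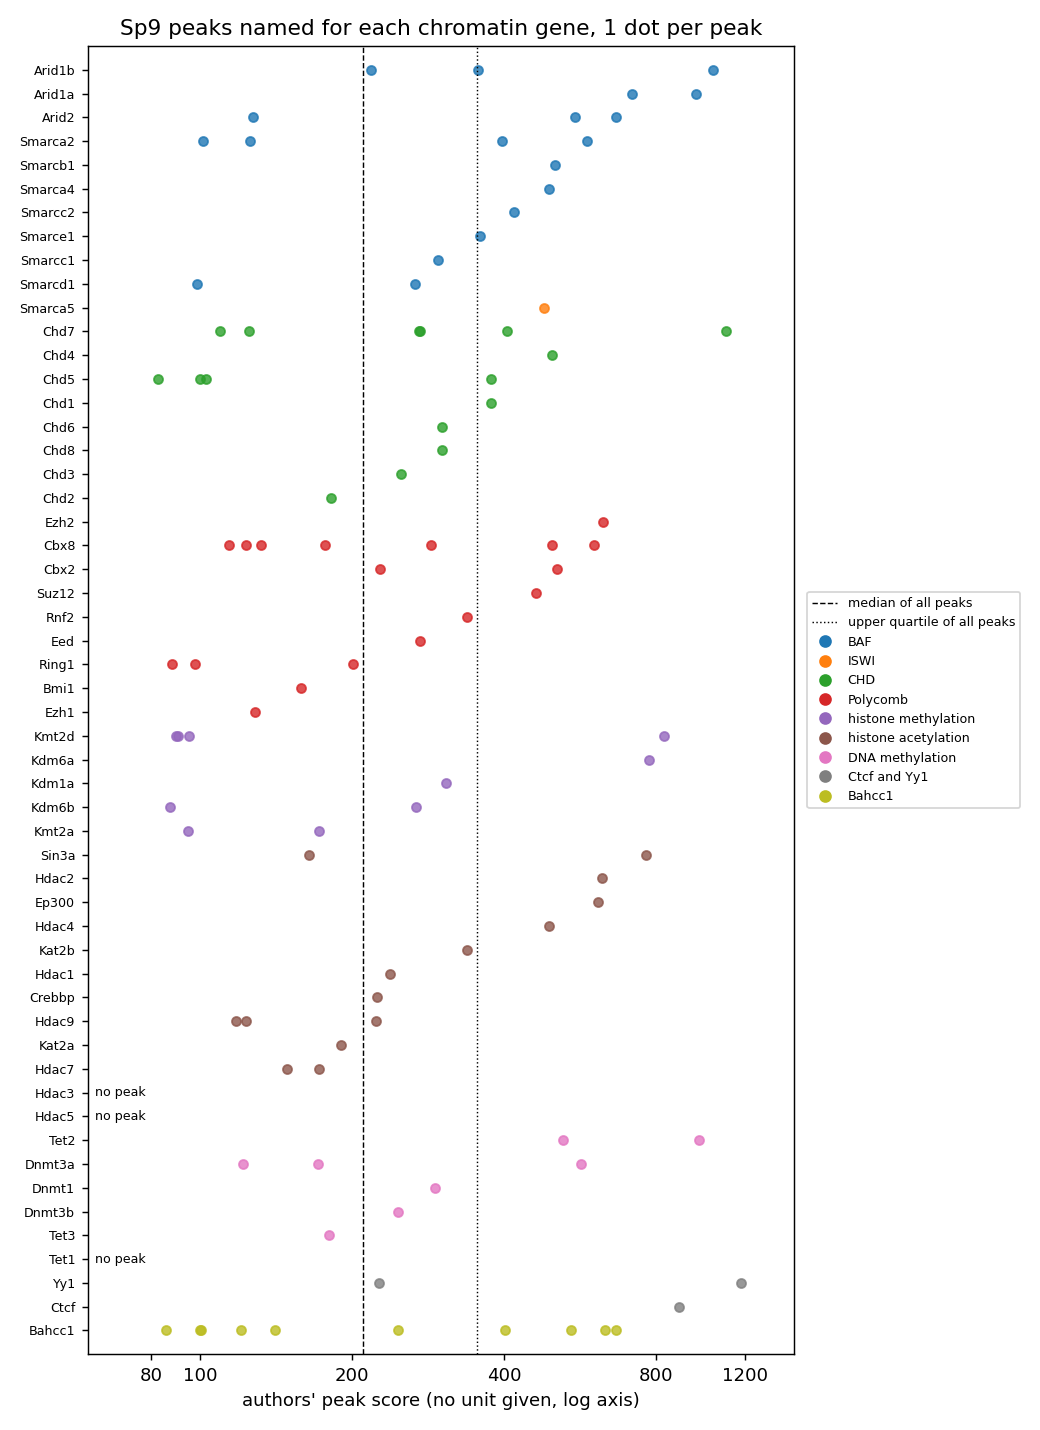
Every linked peak of each member, 1 dot per peak, by the authors' peak score on a log axis, with genes grouped by function and ordered by their highest peak. The highest dots belong to Yy1 (1181.57), Chd7 (1099.65) and Arid1b (1035.97), Bahcc1 has 10 dots, and Hdac3, Hdac5 and Tet1 have none.

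Between the 6 larger groups, the share of genes with any linked peak ranged from 83.3 to 100%, and the share with an upper-quartile peak from 33.3 to 80%. All 10 BAF genes, 8 CHD genes, 9 Polycomb genes and 5 histone methylation genes had a linked peak, as did 10 of 12 histone acetylation genes and 5 of 6 DNA methylation genes (55.4% of coding genes). Above-median peaks were linked to 10 of 10 BAF, 7 of 8 CHD, 6 of 9 Polycomb, 4 of 5 histone methylation, 8 of 12 acetylation and 4 of 6 DNA methylation genes (35.4% of coding genes). At the upper quartile the counts were 8, 4, 4, 2, 4 and 2 in the same order, or 80%, 50%, 44.4%, 40%, 33.3% and 33.3% (19.2% of coding genes). The median of the genes' highest scores was 498.71 for BAF, 339.38 for CHD, 338.19 for Polycomb, 306.94 for histone methylation, 292.09 for DNA methylation and 288.37 for acetylation. Among the members, BAF had the highest value in the last 3 of these orders and shared it in the first. This lead did not hold throughout in further genes of the same complexes, given below. The groups hold 5 to 12 genes each and their exact intervals overlap throughout (for the upper quartile, 44.4 to 97.5% for BAF and 9.92 to 65.1% for acetylation), so the order is a description of this list.

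**Figure D2:**
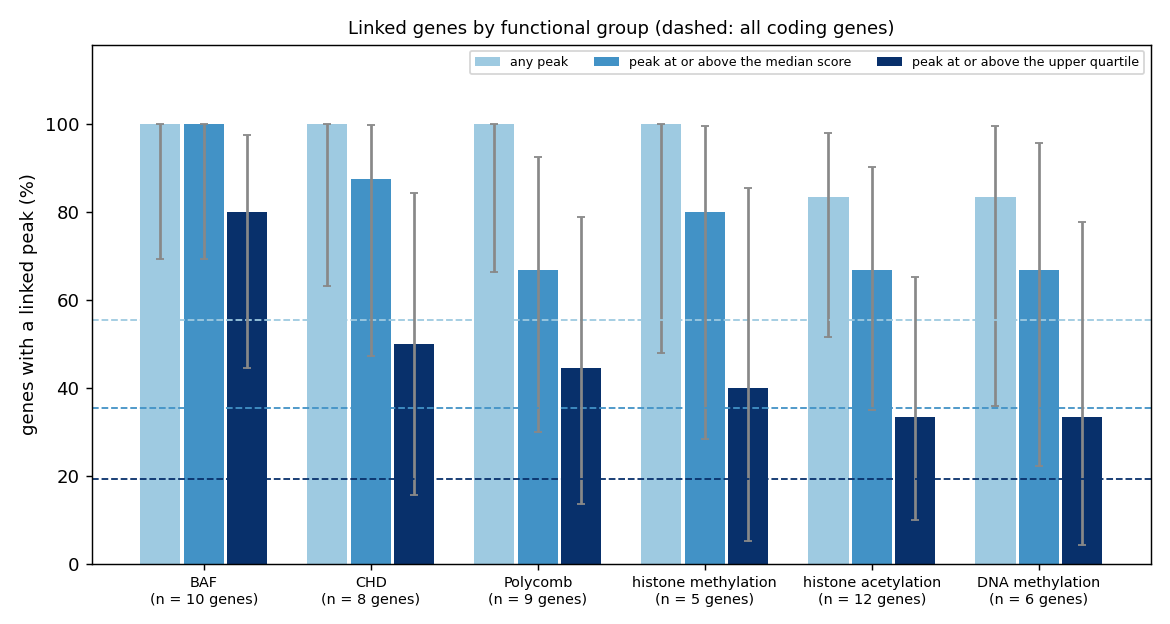
Percent of the genes in each functional group with any peak, an above-median peak or an upper-quartile peak; error bars are exact 95% intervals and dashed lines are the shares of all coding genes (55.4%, 35.4% and 19.2%). BAF keeps 80% of its genes at the upper quartile, whereas acetylation and DNA methylation genes are at 33.3%.

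GC boxes, the GC-rich elements that Sp factors bind, were looked for in the members' promoters. The letters GGGCGG were searched on both strands, overlapping matches included, in the 250 bases before each gene start in RefSeq's promoter table (GRCm38.p6). The table had 57 starts for 44 of the 54 members, and 41 of the 57 (71.9%) held the motif, against 42.6% of 21263 promoters of coding genes and 32.7% of all 32851. The members' promoters were also richer in G and C, with a median of 67.6% against 55.6% for coding genes, and the part of base composition in the motif count was not tested. A longer form, GGGGCGGGG, which contains the shorter one, was in 8 of the 57 (14%), against 13.9% of coding promoters. These starts are in another build than the peaks, so whether a peak covers them was not analysed here. Printed here, 5′ to 3′ on the strand of the gene, are 4 promoters, with GGGCGG or its reverse complement in capitals. They belong to the members with the highest peak (Yy1) and the most peaks (Bahcc1), and to 2 without a linked peak (Hdac5 and Tet1).
Yy1 (GRCm38.p6, chr12:108793047-108793296, plus strand): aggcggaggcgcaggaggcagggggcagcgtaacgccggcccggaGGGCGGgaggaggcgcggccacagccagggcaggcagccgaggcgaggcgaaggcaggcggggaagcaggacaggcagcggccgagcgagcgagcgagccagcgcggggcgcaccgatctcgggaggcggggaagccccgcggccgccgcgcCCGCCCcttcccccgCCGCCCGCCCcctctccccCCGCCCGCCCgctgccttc
Bahcc1 (GRCm38.p6, chr11:120232697-120232946, plus strand): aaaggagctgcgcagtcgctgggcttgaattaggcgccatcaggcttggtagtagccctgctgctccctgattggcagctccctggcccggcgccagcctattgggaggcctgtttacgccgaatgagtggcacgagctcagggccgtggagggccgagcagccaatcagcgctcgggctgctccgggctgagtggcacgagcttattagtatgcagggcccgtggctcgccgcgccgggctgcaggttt
Hdac5 (GRCm38.p6, chr11:102230173-102230422, minus strand): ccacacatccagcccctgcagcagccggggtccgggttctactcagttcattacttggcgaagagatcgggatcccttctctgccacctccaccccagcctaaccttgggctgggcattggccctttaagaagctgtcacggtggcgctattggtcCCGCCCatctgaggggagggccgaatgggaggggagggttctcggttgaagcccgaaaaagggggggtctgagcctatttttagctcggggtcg
Tet1 (GRCm38.p6, chr10:62887325-62887574, minus strand): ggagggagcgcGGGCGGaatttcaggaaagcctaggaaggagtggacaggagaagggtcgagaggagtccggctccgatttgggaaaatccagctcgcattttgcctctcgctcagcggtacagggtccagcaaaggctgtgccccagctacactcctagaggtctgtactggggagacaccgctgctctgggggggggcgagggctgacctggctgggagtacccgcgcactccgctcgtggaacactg
Yy1 had 6 matches in a window with 81.2% G and C. Bahcc1, with 10 linked peaks, had 0, and the unlinked genes Hdac5 and Tet1 had 1 each. These 4 promoters were chosen by the genes' peaks, so they cannot show whether matches follow linked peaks. Over all the members' starts, GGGCGG was in 39 of 55 of linked members (70.9%) and in 2 of 2 of members without a peak. With only 2 starts on that side, a difference was not tested.

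The BAF complex (SWI/SNF) is an ATP-driven remodeller built around Smarca4 or Smarca2. Smarca4 (Brg1) had 1 peak of score 492.2 on chr9:21420199-21421241, above 87.4% of all peaks. Smarca2 (Brm), the alternative motor, had 4 peaks with scores of 101.63, 397.04, 584.72 and 125.74 over 404 kb, of which the 2 above-median ones lay 165 bp apart. The DNA-binding subunits that tell BAF forms apart had the highest values. Arid1a had 2 peaks, 961.67 on chr4:133308127-133310953 and 718.5 on chr4:133368756-133370771. Its paralog Arid1b had 3, 356.07, 1035.97 and 218.66, spread over 283 kb, with the highest on chr17:4993894-4997187. Arid2, which marks the PBAF form, had 552.1 and 667.77 at a distance of 173 bp and a lower peak of 127.19. The core subunit Smarcb1 scored 505.22, the scaffold paralogs Smarcc2 and Smarcc1 419.43 and 296.44, the accessory subunit Smarce1 357.98, and Smarcd1 266.41 with another peak of 98.82. The ISWI motor Smarca5, from a separate family of remodellers, had 1 peak of 479.75.

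CHD proteins are remodellers that carry chromodomains. Chd7, the gene mutated in CHARGE syndrome, had 6 peaks over 265 kb of chromosome 4 with scores of 273.18, 109.48, 1099.65, 271.23, 125.09 and 404.86. The peak of 1099.65 (chr4:8616716-8619480) stood above 99.2% of all peaks. Among the motors of the NuRD complex, which couples remodelling to histone deacetylation, Chd4 had 1 peak of 498.62, Chd3 1 of 250.34, and Chd5, the form enriched in neurons, had 4. Those of Chd5 scored 377.99, 82.52, 100.15 and 102.97, so 3 of its 4 peaks lay below the median of the list. Chd1, which binds the histone mark of active promoters, had 376.58, Chd6 302.19 and the autism-linked gene Chd8 301.09. Chd2, a gene of childhood epilepsy, had 1 peak of 181.61, the CHD member without an above-median peak.

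Polycomb repressive complex 2 methylates lysine on histone H3, and complex 1 ubiquitinates histone H2A. In complex 2, the catalytic subunit Ezh2 had 1 peak of 628.47 on chr6:47544014-47545877, above 93.6% of peaks, and its paralog Ezh1 1 peak of 128.67, above 25.8%. The partner subunits Suz12 and Eed scored 463.82 and 272.49. In complex 1, the ubiquitin ligase Rnf2 scored 338.19, while its paralog Ring1 had 3 peaks of 97.66, 87.92 and 201.36 within 3.35 kb, none above-median. Bmi1, the subunit that sustains neural stem cells, had 1 peak of 158.9, also below the median. The Cbx proteins, which bring complex 1 to methylated H3, carried the most Polycomb peaks. Cbx8 had 7, with scores of 176.96, 497.19, 123.3, 114.44, 132.39, 603.12 and 286.31 over 22.2 kb, and Cbx2 had 2, of 509.12 and 227.56.

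The peaks of Cbx2 and Cbx8 lay beside each other on chromosome 11. Together they numbered 9 within 36.6 kb, from 118883831 to 118920432, and the largest gap between neighbours was 7603 bp, between the lower peak of Cbx2 and the first of Cbx8. No peak with another name fell inside this run.

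**Figure D3:**
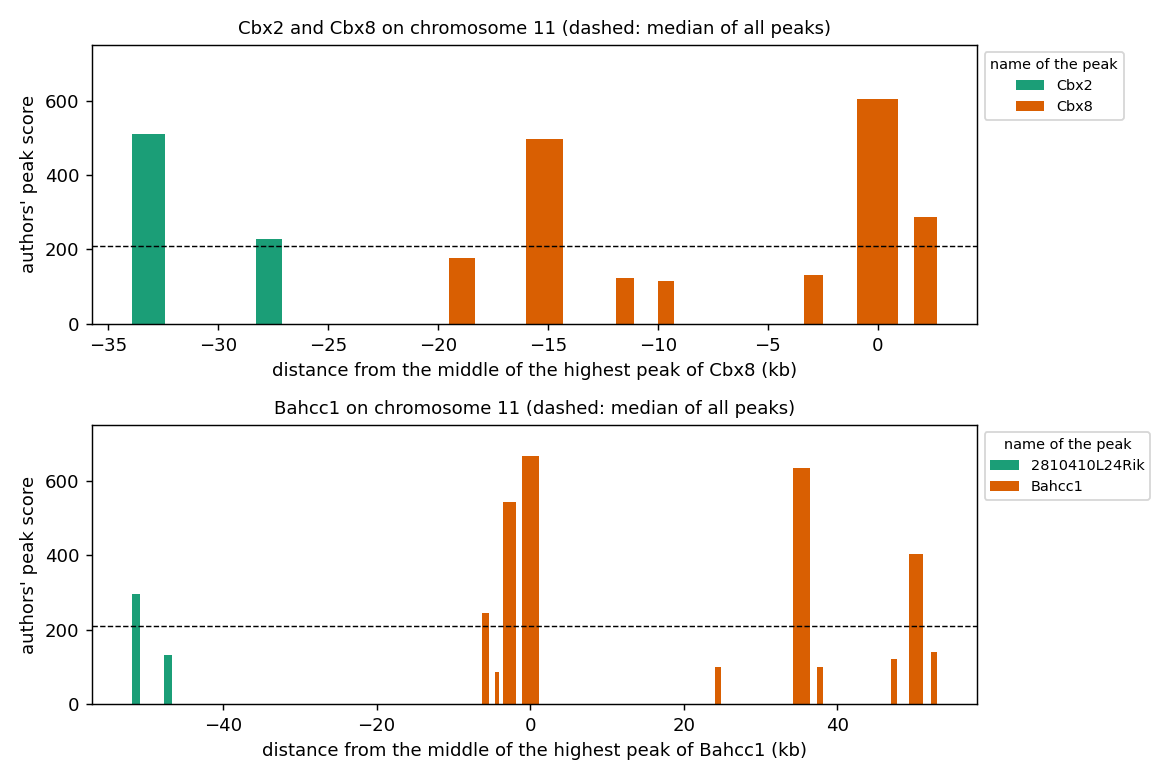
Peaks around the highest peak of Cbx8 (top) and of Bahcc1 (bottom) as bars from start to end, with the distance in kb on the x axis and the authors' score on the y axis, coloured by the name each peak carries; the dashed line is the median of all peaks, 210.06. In the upper panel 9 peaks named Cbx2 and Cbx8 cover 36.6 kb, and in the lower panel 10 peaks named Bahcc1 cover 59.3 kb.

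Histone methylation genes showed wide gaps between related enzymes. Kmt2d, which methylates H3 at enhancers, had 4 peaks: 830.17 on chr15:98701259-98703078, above 97.6% of peaks, and 95.02, 89.65 and 90.48, all far below the median. Kmt2a, a related methyltransferase known for its rearrangement in leukaemia, had 2 peaks of 94.76 and 172.34, both below the median. Of the demethylases that erase the Polycomb mark on H3, the X-linked gene Kdm6a had 1 peak of 775.95 (chrX:17738876-17741045) and Kdm6b had 2, of 87.35 and 267.37, only 117 bp apart. Kdm1a, the demethylase of the CoREST complex, scored 306.94.

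Acetylation genes had 1.17 peaks each on average, the fewest of the larger groups, against 0.819 per coding gene. The coactivator acetyltransferase Ep300 scored 615.09 on chr15:81415739-81417287 and its paralog Crebbp 224.7. Kat2b and Kat2a, the paired acetyltransferases of the SAGA and ATAC complexes, scored 338.5 and 190.23. Among class I deacetylases, Hdac2 scored 626.66 and Hdac1 238.24, and Hdac3 had no linked peak. Among class IIa deacetylases, which shuttle between cytoplasm and nucleus, Hdac4 scored 490.88, Hdac9 had 3 peaks of 123.39, 117.91 and 222.75 over 457 kb, Hdac7 had 2 of 148.73 and 171.84, and Hdac5 had none. Sin3a, the scaffold of a deacetylase complex, had the highest value of the group, 765.27 on chr9:56919665-56921373, with a lower peak of 164.22 beside it.

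DNA methylation genes were led by Tet2, which oxidises methylcytosine. Its 2 peaks scored 972.26 (chr3:133304791-133305927) and 523.7 and lay 96.6 kb apart. The higher one was 1136 bp wide, which gave 856 score units per kb, more than 99.8% of all peaks and the most of the 99 member peaks. Tet3 had 1 peak of 179.87, and Tet1 had none. Of the enzymes that set new methylation, Dnmt3a had 3 peaks of 568.35, 171.21 and 121.89 over 90.1 kb and Dnmt3b 1 of 246.92. The maintenance enzyme Dnmt1 scored 292.09.

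Ctcf and Yy1, zinc finger proteins that hold chromatin loops, were both linked to high peaks. Yy1 had the highest peak of all members, 1181.57 on chr12:110030043-110033066, above 99.4% of peaks, and another of 226.77 at a distance of 33.5 kb. Ctcf had 1 peak of 888.74 on chr8:108159558-108161918, above 98.2%. Bahcc1, a BAH-domain reader of repressed chromatin, had 10 peaks within 59.3 kb with scores from 85.75 to 666.14 and a median of 193.47. Of these, 5 were above-median: 666.14, 634.72, 543.54, 402.21 and 246.26. A gap of 23 kb split the run, with 4 peaks on its left and 6 on its right, with the peak of 666.14 on the left and that of 634.72 on the right.

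Pairs of paralogs were set side by side by their highest scores. Ezh2 and Ezh1 (628.47 and 128.67), Kdm6a and Kdm6b (775.95 and 267.37), Ep300 and Crebbp (615.09 and 224.7), and Hdac2 and Hdac1 (626.66 and 238.24) lay far apart. So did Kmt2d and Kmt2a (830.17 and 172.34), but each has a closer relative outside the set. Those relatives scored nearer to them, Kmt2c (1066.89) to Kmt2d and Kmt2b (185.16) to Kmt2a. Intermediate were Dnmt3a and Dnmt3b (568.35 and 246.92), Kat2b and Kat2a (338.5 and 190.23), Rnf2 and Ring1 (338.19 and 201.36), and Smarcc2 and Smarcc1 (419.43 and 296.44). Arid1b and Arid1a (1035.97 and 961.67), Smarca2 and Smarca4 (584.72 and 492.2), and Cbx8 and Cbx2 (603.12 and 509.12) lay closer. With 1 score per peak and no replicate error, none of these differences could be tested.

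The gene name given to a peak bears on what counts as unlinked. In the RefSeq order of gene starts Hdac5 is followed directly by the microRNA gene Mir8101, and 2 peaks named Mir8101, of 376.23 (chr11:102079328-102080854) and 222.61 (chr11:102090774-102091911), lay between those named for G6pc3, the coding gene before Hdac5, and Asb16. The coding gene directly after Hdac5, Hrob, had no linked peak, and Asb16 comes next. Both Mir8101 peaks are above-median, and the list does not tell whether they lie in Hdac5, in Hrob or outside both. Around Tet1, by contrast, the nearest peaks were those named Ccar1 (477.08) and Slc25a16 (441.55), and the 128 kb between them held no peak of any name. Around Hdac3, 19.2 kb without a peak separated those named Diaph1 (526.97) and Rell2 (229.1). Rell2 directly follows Hdac3 in the order of gene starts, and the list does not tell whether its above-median peak also touches Hdac3. Some linked members had a higher peak with another name nearby: the 158.9 peak of Bmi1 lay 3997 bp from one of 809.21 named Commd3, and the 201.36 peak of Ring1 lay 1592 bp from one of 404.19 named H2-Ke6 and 5553 bp from one of 779.82 named Rxrb. The 267.37 peak of Kdm6b lay 3780 bp from one of 348.72 named Tmem88.

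Further genes of the same complexes, 135 in all, were counted in the same way. A peak was linked to 110 of the 135 (81.5%, exact interval 73.9 to 87.6%; 55.4% of coding genes), an above-median peak to 87 (64.4%; 35.4% of coding genes) and an upper-quartile peak to 65 (48.1%; 19.2% of coding genes). The members' shares were 94.4%, 79.6% and 51.9%, and the difference between the sets was not tested. By group, a peak was linked to 13 of 16 BAF genes, 7 of 7 ISWI, 9 of 10 CHD and NuRD, 20 of 24 Polycomb, 27 of 33 histone methylation, 17 of 22 acetylation, 8 of 11 DNA methylation, 7 of 10 cohesin and architecture genes, and both BAH-domain genes. Above-median peaks were linked to 68.8% of these BAF genes, 70% of CHD and 79.2% of Polycomb genes (35.4% of coding genes). At the upper quartile BAF stood at 56.2%, CHD and Polycomb at 50% each (19.2% of coding genes). The median of the genes' highest scores was 481.03 for BAF and 497.87 for CHD. The 7 highest scores belonged to the ISWI motor Smarca1 (1291.49, with 7 peaks), the H3 methyltransferases Nsd1 (1244.89) and Kmt2c (1066.89), the Polycomb subunit Pcgf5 (973.36), the CoREST subunit Rcor1 (970.2), the bromodomain reader Brd2 (965.23) and the cohesin release factor Wapl (951.86).

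Among the further BAF genes, the subunits exchanged between progenitors and neurons were looked at after their values had been seen. Ss18 and its neuronal counterpart Ss18l1 scored 771.95 and 736.36. Actl6a, the progenitor form of the actin-related subunit, scored 379.85 and the neuronal form Actl6b had no linked peak. Dpf1 and Dpf3, of the neuronal form, had 8 peaks with a highest score of 296.06 and 2 with 662.14, and the progenitor counterparts Phf10 and Dpf2 had 1 each, of 173.27 and 270.97. Neither form of the complex was thus the higher in all of these sets.

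Width, spacing and chromosome of the 99 peaks were described beside those of the whole list. Their median width was 1130 bp against 986 bp for all peaks, and score rose with width among them as in the whole list (Spearman correlation 0.842 over the 99 peaks and 0.745 over all 19979; peaks share libraries and a caller and are not independent). The median distance to the nearest peak of any name was 15.6 kb for member peaks and 29.6 kb for all peaks on assembled chromosomes, and 41 of the 99 (41.4%) had another within 10 kb, against 28.1%. All 17 peaks of Cbx8 and Bahcc1 were among the 41, and without both genes, a comparison added after seeing the data, 24 of 82 (29.3%) had one and the median distance was 23.5 kb. Chromosome 11 held 26 of the 99 peaks (26.3%, against 7.12% of all peaks) and 10 of the 54 genes, whereas 7.35% of coding genes lie there. Cbx8 and Bahcc1 gave 17 of those 26, and without both genes 9 of 82 peaks (11%) lay there. Of the 20 members with several peaks, 10 had at least 2 that were above-median, 7 had only the highest above it, and 3 had none.

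**Figure D4:**
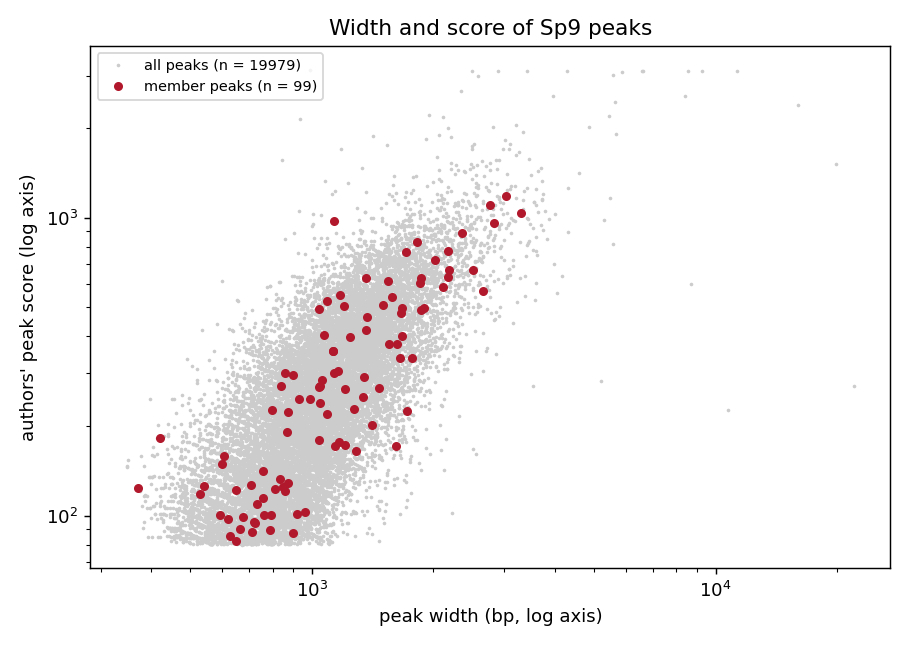
Peak width in bp against the authors' score, both on log axes, for all 19979 peaks (grey) and the 99 member peaks (red). Member peaks follow the same rise of score with width as the whole list, and the Tet2 peak of 972.26 at 1136 bp sits near the upper edge of the cloud.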

How the data were processed

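The deposited list gives a peak score, a start and end, and a gene name per peak that the authors named as shared; per the submitters' processing notes, Bowtie2 2.2.4, MACS 1.4.2 and the build mm9 were used, with no roles or settings given. The rule for a shared peak, the formula of the score and the annotation behind the names remain unstated in the labels and the file. Positions are printed as deposited.

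Member rows were taken by exact gene name. For the shares over coding genes, 13383 names were matched to a RefSeq table (GRCm38.p6) by symbol (12806) or by a synonym held by 1 gene (527), and 50 did not match; that table also gave gene order. Scores were ranked within the list only. Analyses used Python 3.11.15, pandas 2.3.3 and SciPy 1.17.1. Merging and intervals were tested on simulated data, whereas the matching of names to genes was not. No set test was run. Members, groups and further genes were chosen by known function, with earlier results of these data known. Every member is named; further genes are named where highest by score or without a peak in their group, others as stated, and 1 is not reported here. Alternatives were stricter score thresholds, synonyms, assembled chromosomes only, merged peaks, score per kb and leaving out the member with the most peaks.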

Additional observations from a re-analysis of the deposited data

How the results depend on the processing

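The share of members with a linked peak, 94.4% as deposited, was 79.6% with above-median peaks only and 51.9% with upper-quartile peaks only, while that of coding genes went from 55.4% to 35.4% and 19.2%. With upper-quartile peaks only, the groups stood at 50% for CHD, 44.4% for Polycomb, 40% for histone methylation, and 33.3% for both acetylation and DNA methylation. Matching synonyms or leaving out unplaced sequence left the members' share at 94.4%. Merging peaks of a gene at most 1000 bp apart gave 1.65 peaks per member (0.788 per coding gene), at most 10000 bp apart 1.33 (0.72), and leaving out Bahcc1 gave 1.68. The median score of member peaks, 267.37, was 271.23 without Bahcc1 and 377.99 when each member was represented by its highest peak. The median member peak stood above 61.5% of all peaks by score and above 60.6% by score per kb of width. With the further genes added to the members, an alternative chosen after seeing the data, the share with a peak was 85.2% and that with an above-median peak 68.8%. By group, the share with a peak was then 88.5% for BAF, 94.4% for CHD and 87.9% for Polycomb. Histone methylation stood at 84.2%, acetylation at 79.4% and DNA methylation at 76.5%. Leaving out a library was not run, because the list holds no value per library. No paired analysis was possible because a single score stands for both immunoprecipitations. Since the depth is unknown, a gene without a linked peak may still have had one under the detection limit.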
